A study of Mus musculus with 2 samples.

Results

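The genes of MHC class I antigen presentation and of the immunoproteasome were examined in glomeruli isolated from male KK/Ta mice. They comprise the heavy chain genes H2-K1, H2-D1 and H2-T23, the light chain gene B2m, the loading genes Tap1, Tap2 and Tapbp, and the immunoproteasome subunit genes Psmb8, Psmb9 and Psmb10. Members were all probe sets whose platform annotation named one of these 10 genes. For H2-K1 and H2-D1, probe sets that also named other H2 genes were taken too and are called shared. This gave 29 of 45037 probe sets, 3 of them shared, and 9 of the 10 genes had at least 1 probe set of their own. Both probe sets naming H2-T23 also named the pseudogene H2-T-ps. They fell outside the rule and are given beside the members, out of all counts.

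The study compared glomeruli of KK/Ta mice, inbred animals prone to obesity and type 2 diabetes, fed fat-rich food (HFD) or food of normal fat content (Chow). Mice of both groups were male and 20 weeks old, with no transgene or agent named in the labels. Total RNA was amplified in 2 labelling cycles and hybridised to Affymetrix Mouse Genome 430 2.0 arrays, with 1 array per diet. The series design speaks of 3 mice, and the sources used here do not say whether RNA of several mice was pooled on an array. No replicate exists, so the diets were not tested against each other, and each difference describes these 2 RNA preparations.

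Values were linear probe set signals, with a highest value of 19489 (HFD) and 19853 (Chow). After a log2 transform, the median probe set of each array was set to 0. That median, a signal of 42.3 in HFD and of 44.9 in Chow, also served as a floor to which lower values were raised. A difference below is HFD minus Chow in log2 units after centring, which added 0.083 to every difference. Of the 8 podocyte markers with a probe set of their own, all 8 were above the floor on both arrays. The nephrin gene Nphs1 read 5421 (HFD) and 5427 (Chow).

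MHC class I molecules display peptides from a cell's own proteins to CD8 T cells, and nearly all nucleated cells carry them. Proteasomes cut proteins to peptides, the TAP transporter (Tap1 with Tap2) moves these into the endoplasmic reticulum, and tapasin (Tapbp) helps to load them onto a heavy chain paired with beta-2-microglobulin. Interferon-gamma raises the whole set, and it brings in Psmb8, Psmb9 and Psmb10 as replacements for the catalytic subunits Psmb5, Psmb6 and Psmb7. In the kidney, glomerular endothelium carries class I strongly, and macrophages and dendritic cells are rich in immunoproteasome.

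RefSeq promoter windows (GRCm38.p6, 250 bases before to 50 after the start site) were found for 9 of the 10 genes, with 10 windows in all (H2-K1 has 2 that overlap, and the one further upstream is shown). Of the 10 genes, 8 lie on chromosome 17, with B2m on chromosome 2 and Psmb10 on chromosome 8. The windows below are shown because H2-K1 and H2-D1 are close copies, which bears on probe sets that cannot separate them, because Tap1 and Psmb9 start in opposite directions from one short stretch, and because B2m pairs with all heavy chains. Capitals mark matches, on either strand, to GAAA and GAAA with 2 bases between them (interferon-stimulated element core), TTCNNNGAA (STAT site core), GGG and CC with 5 bases between them (kappaB-like) or GAANTGAAA (an interferon element form added after the letters were seen). Overlapping matches are merged into 1 run of capitals. All are written 5′ to 3′ on the strand of the gene.
H2-K1, chr17:34000298-34000597, minus strand: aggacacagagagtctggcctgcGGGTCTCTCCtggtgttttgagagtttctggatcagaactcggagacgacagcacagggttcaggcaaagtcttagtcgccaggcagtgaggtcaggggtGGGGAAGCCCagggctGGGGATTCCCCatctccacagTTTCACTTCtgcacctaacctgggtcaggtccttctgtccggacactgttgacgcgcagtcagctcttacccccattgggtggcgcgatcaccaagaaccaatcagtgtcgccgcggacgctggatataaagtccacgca
H2-D1, chr17:35262844-35263143, plus strand: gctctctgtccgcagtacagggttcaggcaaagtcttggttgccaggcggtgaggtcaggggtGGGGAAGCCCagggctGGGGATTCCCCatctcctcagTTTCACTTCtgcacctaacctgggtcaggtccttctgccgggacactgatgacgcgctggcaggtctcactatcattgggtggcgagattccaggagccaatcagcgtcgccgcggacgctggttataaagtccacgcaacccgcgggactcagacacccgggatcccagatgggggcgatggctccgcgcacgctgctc
B2m, chr2:122147437-122147736, plus strand: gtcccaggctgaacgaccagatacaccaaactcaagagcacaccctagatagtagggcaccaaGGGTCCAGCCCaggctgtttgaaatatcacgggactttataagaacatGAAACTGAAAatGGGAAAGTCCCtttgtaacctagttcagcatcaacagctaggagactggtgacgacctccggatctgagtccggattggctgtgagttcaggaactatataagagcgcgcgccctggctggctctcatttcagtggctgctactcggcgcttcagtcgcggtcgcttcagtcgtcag
Tap1, chr17:34187306-34187605, plus strand: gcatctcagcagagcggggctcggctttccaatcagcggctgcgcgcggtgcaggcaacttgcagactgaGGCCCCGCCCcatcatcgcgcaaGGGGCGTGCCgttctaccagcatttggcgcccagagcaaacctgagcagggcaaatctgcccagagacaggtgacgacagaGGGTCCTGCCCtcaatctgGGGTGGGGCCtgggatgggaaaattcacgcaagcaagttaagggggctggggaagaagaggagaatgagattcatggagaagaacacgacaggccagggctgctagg

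The H2-K1 and H2-D1 windows were identical at 211 of 239 aligned bases (88.3%), and their longest common run was 47 bases. Both held GGGATTCCCC and, downstream of it, TTTCACTTC, a match to GAANTGAAA on the other strand. The last motif occurred in 1.83% of 32851 promoter windows of this length. The B2m window held GAAACTGAAA, a match to the interferon-stimulated element core (3.44% of all windows), ending 130 bases before the start site. The H2-T23 window held a match to the same motif, TTTCTCTTTC. Psmb8 held the only TTCNNNGAA match among the 10 windows, TTCCCAGAA (8.3% of all windows). The kappaB-like motif occurred in 50.8% of all windows, so its matches describe little. The Tap1 and Psmb9 start sites are 226 bases apart and point away from each other, and their windows share 275 bases. These are matches of letters in a window and say nothing on binding.

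No class I or immunoproteasome probe set above the floor reached a 2-fold difference between the diets. Of the 29 member probe sets, 19 were above the floor on both arrays, 1 on the HFD array only and 9 on neither. A 2-fold excess in HFD was reached by 0 of the 20 above the floor, against 0.615% of all 23419 such probe sets. A 2-fold deficit was likewise reached by 0 of 20, against 0.295% of all. At such shares most sets of 20 probe sets would hold no call, so these counts of 0 say little about the members. Without centring those shares of all were 0.453% and 0.41%, and no member passed 2-fold. At 1.5-fold, 1 of 20 was higher (3.66% of all) and 0 were lower (2.58% of all). Probe sets of H2-K1 and H2-D1 share sequence, so these counts are not counts of independent measurements.

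The members stood slightly to the HFD side. Their median difference was 0.22, against 0.038 over all 23419 probe sets, and 17 of 20 were above 0, where 56.6% of all were. Probe set 1451593_at, above the floor in HFD only, could only stand above 0. Without centring 13 of 20 were above 0 (41.9% of all) and the median was 0.14, against -0.045 over all probe sets, and 16 of 20 were above that median of all. The scatter of differences among probe sets of like signal (scaled median absolute deviation) was 0.16 for the brightest 10% of probe sets, which held 10 of the members. The median difference of that bin was 0.064 and that of its 10 member probe sets 0.23. Of the 19 members above the floor on both arrays, 10 exceeded the median of all by more than the scatter at their signal, where 15.9% of all probe sets did. One was below it by more than the scatter, where 17.3% of all were. Of these 11, 7 were H2-K1 or H2-D1 probe sets, which share sequence, so they are not independent measurements. The rest were both Tapbp probe sets, Tap2 and Psmb10. Neither B2m probe set was among them, nor were Tap1, Psmb8 and Psmb9. This scatter mixes technical and real differences and does not measure how mice vary. In RNA of whole glomeruli, more cells of a type and more RNA per cell cannot be told apart.

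**Figure D1:**
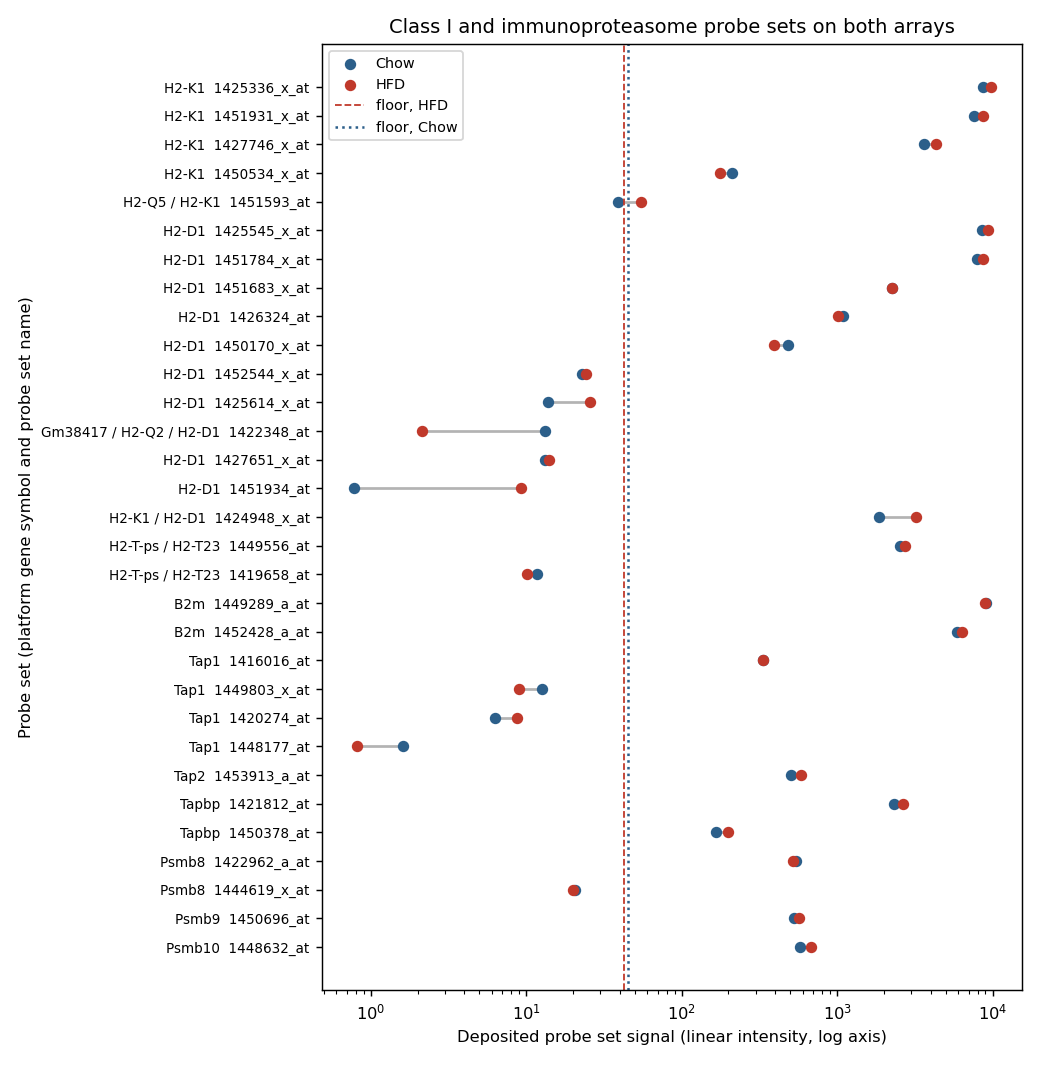
Deposited signal of each member probe set, and of both H2-T23 probe sets, on the Chow (blue) and HFD (red) arrays, on a log axis, with the floor of each array as a vertical line. The points of most probe sets nearly coincide, and the pair naming H2-K1 and H2-D1 together (1847 and 3237) is the widest above the floor.

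The heavy chains H2-K1 and H2-D1 present peptides to CD8 T cells. The brightest H2-K1 probe set, 1425336_x_at, read 9713 in HFD and 8703 in Chow, a difference of 0.24 (1.18-fold). Probe set 1451931_x_at read 8722 and 7591, a difference of 0.28, and 1427746_x_at read 4341 and 3638, a difference of 0.34. The fourth, 1450534_x_at, read 178 and 211, a difference of -0.17. So 3 of 4 H2-K1 probe sets were higher in HFD, and the dimmest went the other way. The 4 differences spanned 0.50 log2 units, more than any one of them.

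H2-D1 had 9 probe sets of its own, of which 5 were above the floor. Probe set 1425545_x_at read 9364 in HFD and 8507 in Chow, a difference of 0.22, and 1451784_x_at read 8703 and 7909, also 0.22. Probe set 1451683_x_at read 2238 and 2268, a difference of 0.064, which was -0.019 without centring. Probe sets 1426324_at (1018 and 1088) and 1450170_x_at (394 and 484) differed by -0.013 and -0.21. As for H2-K1, the brightest probe sets were the higher ones in HFD and the dimmest was lower. The median of the 5 was 0.064, near that of all probe sets. The other 4 read between 0.781 and 25.6 on both arrays, under the floor, and no fold is given for them.

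The member with the largest difference was a shared one. Probe set 1424948_x_at, named for both H2-K1 and H2-D1, read 3237 in HFD and 1847 in Chow, a difference of 0.89 (1.86-fold). That lay above 99.0% of all probe sets above the floor, and it ran from 0.81 to 0.89 over the 8 settings. No H2-K1 or H2-D1 probe set of a single gene differed by more than 0.34, so this value was not repeated by any of the other 9 above the floor. Class I heavy chain genes vary strongly between mouse strains, and both arrays hold RNA of the same inbred strain. Which H2 alleles KK/Ta carries, or which allele this probe set matches, was not tested. A second shared probe set, 1451593_at, named for H2-Q5 and H2-K1, read 54.4 in HFD and 39.2 in Chow. It was above the floor in HFD only and at least 1.28-fold higher. The third, 1422348_at, named for H2-D1, H2-Q2 and Gm38417, read 2.12 and 13.2, under the floor on both arrays.

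**Figure D2:**
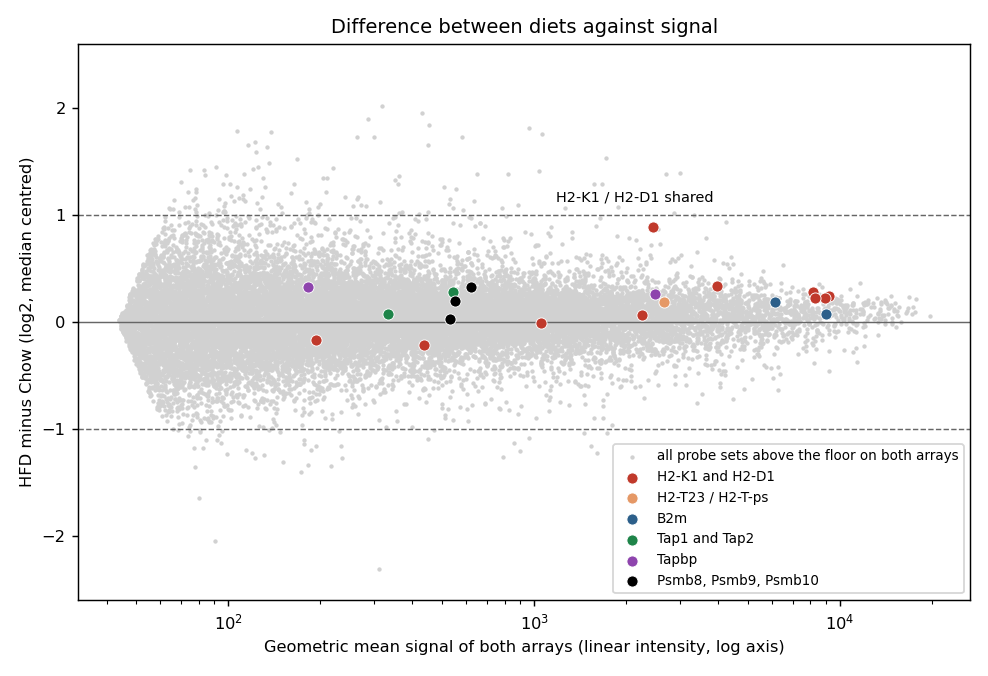
HFD minus Chow difference (log2, median centred) against the geometric mean signal of both arrays (log axis) for all probe sets above the floor on both arrays (grey) and for the members (coloured by role), with dashed lines at 2-fold. All members lie between the dashed lines, and the shared H2-K1 and H2-D1 probe set at 0.89 lies nearest to one.

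Beta-2-microglobulin is the invariant light chain that all class I heavy chains need to reach the surface. Its probe set 1449289_a_at read 8953 in HFD and 9004 in Chow, a difference of 0.075. The second, 1452428_a_at, read 6357 and 5912, a difference of 0.19. Without centring these were -0.0082 and 0.10. Neither differed from the median of all probe sets by more than the scatter of 0.16 at that signal. The nonclassical heavy chain gene H2-T23 (Qa-1) encodes a ligand of natural killer cell receptors. Its probe set shared with H2-T-ps, 1449556_at, read 2748 and 2556, a difference of 0.19. The other, 1419658_at, was under the floor at 10.1 and 11.7.

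The peptide transporter subunit Tap1 had 4 probe sets, of which only 1416016_at was above the floor. It read 332 in HFD and 335 in Chow, a difference of 0.072 (-0.011 without centring). The 3 others read between 0.819 and 12.6. Tap2, its partner subunit, read 584 and 508 (1453913_a_at), a difference of 0.28 (1.22-fold). Tapasin, which bridges the transporter and the heavy chain, was measured by 2 probe sets. The brighter, 1421812_at, read 2646 and 2330, a difference of 0.27, and 1450378_at read 198 and 167, a difference of 0.32. Tap2 and both Tapbp probe sets were thus higher in HFD and the Tap1 values were nearly equal. With the floor at the 70th percentile, the dimmer Tapbp difference was 0.087.

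The immunoproteasome subunits are the interferon-inducible catalytic chains of the 20S particle. Psmb8 (1422962_a_at) read 523 in HFD and 542 in Chow, a difference of 0.032 that stood on the other side of 0 in 3 of 7 alternative settings. Psmb9 (1450696_at) read 571 and 529, a difference of 0.19. Psmb10 (1448632_at) read 677 and 573, a difference of 0.32 (1.25-fold). A second Psmb8 probe set, 1444619_x_at, was under the floor at 20.1 and 20.6. Psmb8, Psmb9 and Tap1 lie side by side in the class II region of the H2 complex. Psmb9 and Tap1, which share the promoter stretch shown above, differed by 0.19 and 0.072.

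The constitutive subunits that they replace were set beside them. Psmb5 read 1766 in HFD and 1985 in Chow, a difference of -0.085, so the Psmb8 difference exceeded it by 0.12. Psmb6 read 1427 and 1631, a difference of -0.11, so that of Psmb9 exceeded it by 0.30. Psmb7 read 2282 and 2023, a difference of 0.26, so that of Psmb10 exceeded it by only 0.067. The inducible subunit stood further to the HFD side in 3 of 3 pairs, a number too small to read as a result. With the scatter at both signals combined, the spread of such a value was 0.26 for the first and second pair and 0.25 for the third. Only the value of Psmb9 and Psmb6 was larger than its spread. Such a spread is often passed: of single probe sets, 15.9% stood above and 17.3% below the median of all by more than their scatter. The share over all pairs of genes was not computed. Within each pair the value does not depend on centring, and over the 9 settings it ran from 0.29 to 0.30 for Psmb9 and Psmb6.

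**Figure D3:**
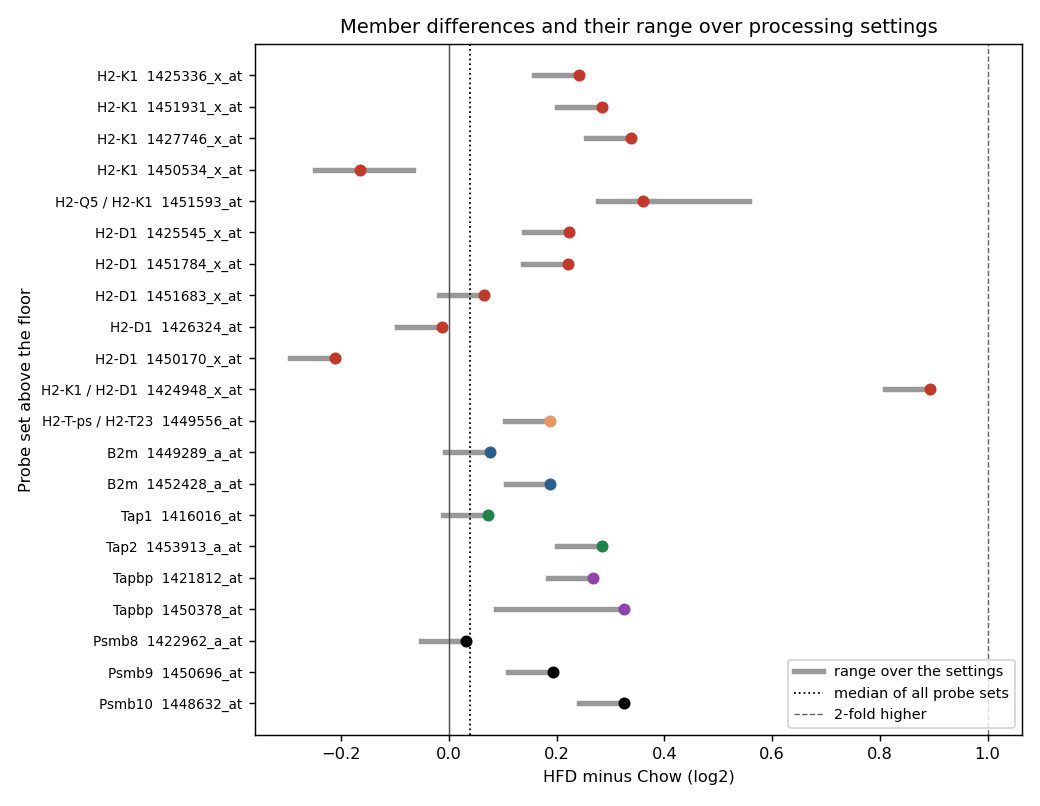
HFD minus Chow difference (log2) of each member probe set above the floor, and of the H2-T23 one, as points coloured by role, with grey bars for the range over all processing settings. The dotted line marks the median of all probe sets (0.038), the dashed line 2-fold, and no bar reaches the dashed line.

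With 1 value per gene, from the brightest probe set, all 9 member genes were above 0, where 62.2% of all 11360 genes were, and the median was 0.22. Without centring 6 of the 9 were above 0 (not B2m, Tap1 and Psmb8), where 46.1% of all genes were. Under quantile normalization 8 of 9 were above 0 (54.6% of all genes), and under the loess fit 8 of 9 (55.2% of all genes). Psmb8 was the exception in both. Above the median of all genes (0.064) lay 8 of the 9, B2m (0.075) and Tap1 (0.072) by less than the scatter at their signal. Under quantile normalization and under loess, 7 of the 9 lay above the median of all genes.

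Other genes of the pathway came from 6 lists chosen for their role. In all 6 lists, 0 genes were at least 2-fold higher (0.731% of all genes) and 0 at least 2-fold lower (0.158% of all). At 1.5-fold, 1 gene was higher (4.23% of all) and 0 were lower (1.42% of all). Each list median lay between -0.070 and 0.14, and between -0.15 and 0.056 without centring. The counts of genes above 0 that follow are after centring, on a scale where 62.2% of all genes were above 0.

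Among other class I heavy chains and class I-like molecules, 6 of 8 genes were above 0, with a median of 0.11. H2-T3, named after its values were seen, read 32.7 in HFD and 45.7 in Chow. It was above the floor in Chow only, so its side below 0 was fixed by the floor. Cd1d1, which presents lipids, stood at 0.25 (626 in HFD and 556 in Chow, with a second probe set at -0.050) and H2-M3, which presents formylated peptides, at 0.19. Fcgrt, the neonatal Fc receptor heavy chain, stood at 0.14 and H2-T24 at -0.38 at a low signal (108 and 148). Probe sets naming several H2-Q, H2-T or H2-Bl genes were above the floor in 5 cases and differed by -0.22 to 0.16. One for H2-Q6 and H2-Q8 was among the brightest, at 11144 in HFD and 11418 in Chow, a difference of 0.048. Another for H2-Q7 and H2-Q9 read 7692 and 7812, a difference of 0.061.

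Of 15 genes for loading and trimming of peptides, 12 were above 0, with a median of 0.092. The aminopeptidase Lap3, another interferon-inducible enzyme, stood highest at 0.46 (604 in HFD and 464 in Chow). Tpp2, a large cytosolic peptidase, stood at 0.35 in its brightest probe set, while its 4 others ran from -0.20 to 0.17. The peptidase Thop1 stood at 0.16 and Bcap31, an export factor of the endoplasmic reticulum, at 0.14 (-0.11 in its second probe set). The chaperones of the loading complex, Calr, Canx and Pdia3, stood at -0.042, 0.0025 and 0.11 in their brightest probe sets. The trimming enzyme Erap1 stood at 0.092. The second probe set went the other way for Pdia3 (-0.38) and Erap1 (-0.17).

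The constitutive 20S proteasome was the only one of the 6 lists with a median under 0 (-0.070), and 5 of its 14 genes were above 0. By brightest probe set, Psmb3 stood lowest at -0.25, and Psmb7 (0.26), Psma4 (0.16) and Psma7 (0.16) highest. A second probe set stood at -0.18 for Psma7 and at -0.47 for Psmb4 (-0.11 in its brightest). The 2 further ones of Psmb1 (0.051 in its brightest) stood at 0.48 and 0.74. The 19S regulatory particle, which unfolds the substrates, had 15 of 17 genes above 0 and a median of 0.11. Its lid subunit Psmd6 was 1.52-fold higher (2056 and 1437), although a second probe set differed by 0.099. Psmd8, Psmd11 and Psmd14 stood at 0.28, 0.26 and 0.26. Of 9 proteasome activators and assembly factors, 6 were above 0 (median 0.10). Psme1, a subunit of the interferon-inducible PA28 activator, stood at 0.10. Pomp, the assembly factor of 20S particles, stood at -0.23, Psmg4 at -0.24, Psmg1 at 0.22 and Psmg3 at 0.26 (-0.12 in its second probe set).

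Among regulators of class I transcription, 10 of 16 genes were above 0, near the 62.2% of all genes, with a median of 0.14. Receptor and factor genes did not stand on one side. The interferon receptor chains Ifnar2, Ifngr2 and Ifngr1 stood at 0.55, 0.38 and 0.26, the first in its brightest probe set only, since the 2 others ran from -0.17 to 0.020. Rfx5, a factor of the class I and class II promoters, stood at 0.26. Nlrc5, the class I transactivator, was dim at 69.5 in HFD and 79.3 in Chow, a difference of -0.11. Irf1, which binds the interferon element of class I promoters, read 1445 and 1798, a difference of -0.23. Irf9, Stat2 and Irf2 stood at -0.25, -0.23 and -0.16. On the other side of 0 stood Rela at 0.24, Ifnar1 at 0.24 (-0.25 in its second probe set) and Irf8 at 0.15. Jak1 stood there at 0.13 (-0.053 and 0.59 in its 2 others) and Jak2 at 0.12. Irf1, Irf9, Stat2, Irf2, Rela, Ifnar1, Irf8, Jak1 and Jak2, and the chaperones, Erap1, Psmb1, Psmb4 and Psme1 above, were named after their values were seen.

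**Figure D4:**
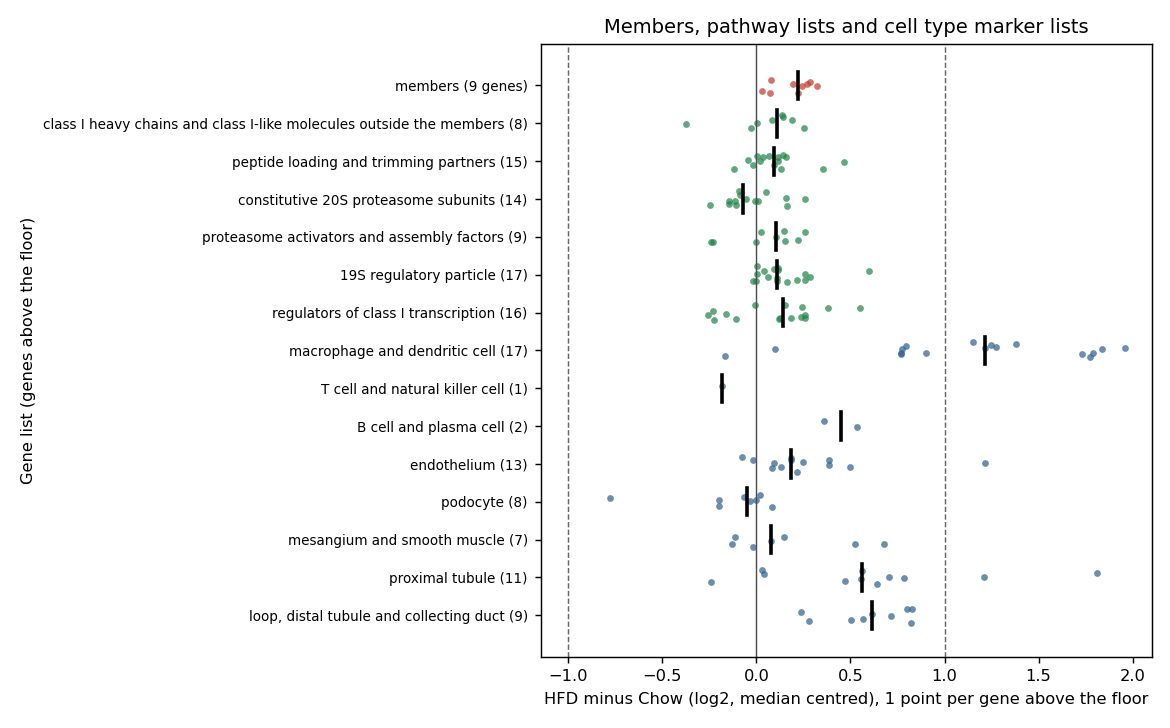
HFD minus Chow difference (log2, median centred) of each gene above the floor, by its brightest probe set, for the members (red), the pathway lists (green) and the cell type marker lists (blue), with a black bar at each list median and dashed lines at 2-fold. The members and all pathway lists sit within the dashed lines with medians from -0.070 to 0.22, and the macrophage and dendritic cell list has a median of 1.22.

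Macrophage and tubule markers differed more between the arrays than the members did. Of 17 macrophage and dendritic cell markers above the floor, 16 were higher in HFD (62.2% of all genes), and the median was 1.22. Of these, 10 were past 2-fold (0.731% of all genes). Cd68, C1qa, C1qb and C1qc were above the floor in HFD only, so their side was fixed by the floor and their folds are bounds. Cd68 and C1qb were among those past 2-fold. The class II genes H2-Eb1 (821 in HFD and 224 in Chow) and Cd74 (830 and 246) differed by 1.96 and 1.84, and the phagocyte oxidase gene Cybb by 1.79 (0.28 in its second probe set). The summed signal of the list was 8907 in HFD and 5056 in Chow, and Itgam, Itgax and Fcgr1 were under the floor on both arrays. The class II chains H2-Aa and H2-Ab1, named after their values were seen, stood at 1.38 and 0.90, with further probe sets from 1.82 to 1.90 and from 0.79 to 1.15. Of the 19 members above the floor on both arrays, the shared H2-K1 and H2-D1 probe set stood at 0.89 and the other 18 between -0.21 and 0.34. The part of macrophage RNA in the class I values was not tested.

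T cell and natural killer cell markers were mostly under the floor, which is a median signal and not a limit of detection. Of all 18193 genes, 11360 were above it on at least 1 array. Of the 11 markers on the array, 10 were under the floor on both arrays, Cd3e, Cd4 and Gzmb among them. Cd8a read 49.3 in HFD and 59.2 in Chow. The summed signal of that list was 114 and 121. Of 6 B cell and plasma cell markers, 2 were above the floor, Ighm at 0.54 and Jchain at 0.36 (sum 342 and 263).

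Endothelial markers, from cells rich in class I, were above 0 for 11 of 13 genes, with a median of 0.18 and a summed signal of 62724 in HFD and 59230 in Chow. Vwf stood at 1.22 at a low signal (116 and 52.8), Plvap at 0.50 and Sox18 at 0.39. Podocyte markers were above 0 for 2 of 8 genes (median -0.050, sum 55393 and 60641), with Dach1 at -0.78 and Cd2ap and Wt1 at -0.20. Mesangial and smooth muscle markers had a median of 0.077 over 7 genes (sum 23030 and 22228), with Tagln at 0.68, Acta2 at 0.53 and Itga8 at 0.15. Tubule markers were higher in HFD: 10 of 11 proximal ones (median 0.56, sum 14964 and 10651) and 9 of 9 of the more distal segments (median 0.61, sum 9691 and 6816). After centring, 62.2% of all genes were above 0. The distal marker Scnn1b was above the floor in HFD only, so its side was fixed by the floor. Slc13a1, Slc22a6 and Slc27a2 led the proximal list at 1.81, 1.21 and 0.78 in their brightest probe sets (a second one stood at -0.28 for Slc13a1 and 0.81 for Slc22a6), and Slc12a3, Calb1 and Cldn8 the distal one at 0.83, 0.82 and 0.80. The endothelial median was near that of the members and the tubule medians were above it. Their part in the class I values was not tested either.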

How the data were processed

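Total RNA of isolated glomeruli was measured on 1 array per diet. The deposited values were linear probe set intensities, and the sources used here do not say how the authors summarised probes and scaled the arrays. GeneSpring 7.3.1 is named for the comparison, per the labels' series design. Of 45101 probe sets, 64 controls were left out. By the platform annotation (2016), 34945 of the rest named 1 gene, 932 several and 9160 none here. Through Entrez identifiers, 34741 matched RefSeq (GRCm38.p6) and 0 symbols changed. Centring, floor and differences were computed in Python 3.11.15 (pandas 2.3.3, statsmodels 0.14.6 for loess). The procedure was tested on simulated data with planted changes beyond 2-fold, larger than any member difference. That simulation does not show how well differences as small as those of the members are recovered. Where only 1 array exceeded the floor, the fold is a bound. A gene was represented by its brightest probe set. With 1 array per diet no test was made, and the number of arrays limits the precision.

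The members and lists were chosen with earlier results of these data known. The naming rule took all members, up to 4 genes above the floor on both arrays with the largest difference in each pathway list, up to 3 in each marker list, and Psmb5, Psmb6, Psmb7 and Nlrc5. Genes named in addition are stated as such in the text or stand as marker examples. Of the 14 lists (6 pathway, 8 marker), 8 had genes without a probe set of their own, 23 genes in all, which were not analysed here.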

Additional observations from a re-analysis of the deposited data

How the results depend on the processing

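The settings tried were values without centring, quantile normalization, loess (span 0.3), a lower floor (30th percentile), a higher one (70th percentile), none at all, the 25th percentile added in place of a floor, thresholds of 1.5-fold and 3-fold, leaving out shared or multiply matching probe sets, and 1 value per gene. Chosen after seeing the data were including the H2-T23 probe sets and leaving out the probe set naming H2-K1 and H2-D1 together. The count of members at least 2-fold higher was 0, and it was 1 with the 1.5-fold threshold and 1 with no floor. The count at least 2-fold lower was 0, and it was 1 with no floor. With no floor, all 29 members counted, and 10.8% of all 45037 probe sets were at least 2-fold higher and 10.1% at least 2-fold lower. The 1.5-fold share of all was 3.66% higher. Against these shares the counts of 1 say little about the members. Both no-floor calls were H2-D1 probe sets with signals under the floor on both arrays (1451934_at and 1422348_at). The member median of 0.22 ran from 0.14 to 0.23 over 12 alternatives. All 139 recomputed member differences, and the 7 of the H2-T23 probe set, moved by less than the scatter at their signal. This was partly fixed in advance. Dropping centring shifts each difference by 0.083, under the smallest scatter (0.16), and a floor does not alter probe sets that lie above it. Signs near 0 changed without centring for Tap1, Psmb8, one B2m and one H2-D1 probe set, and for Psmb8 also under quantile normalization and loess. No scaling moved the median of all probe sets by over 0.1 log2 units. No paired analysis was possible because each diet is 1 array, and for the same reason no replicate could be left out. Signals near the floor limit what can be seen for Nlrc5 and for the dim H2-D1 and Tap1 probe sets.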
